A study of Mus musculus with 9 samples.

Results

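The 45 genes described here encode the machinery of DNA replication and the enzymes that supply it in S phase. They were taken by symbol from a list of replication genes, and all 45 matched 1 Ensembl identifier each among the 55487 genes of the count tables. RNA-seq was done on J774A.1 cells, a mouse macrophage line that grows continuously in culture. The tested groups carried sgRNA 11 or sgRNA 15, 2 CRISPR guides against Slc12a9, a member of the cation-chloride cotransporter family, and the control group carried a safe guide, with 3 libraries in each group. The labels give a knockdown genotype for the cells with either Slc12a9 guide and WT for the cells with the safe guide, while the design text speaks of knockout cells, so the groups are named here by their guide. All cells were treated alike otherwise, first grown with serum and glutamine and then kept for 6 h in medium without serum or glutamine before RNA was taken. Whether the cells were clones or pools, and how Cas9 was delivered, is not given in the labels.

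Before a cell copies its DNA, the origin recognition complex, Cdc6 and Cdt1 load the MCM helicase onto origins, a step called licensing. Cdc45 and the GINS complex then join the helicase and open the DNA, which RPA coats, and DNA polymerases alpha, delta and epsilon copy it with the help of the PCNA clamp and its loader, the RFC complex. Ribonucleotide reductase and the thymidylate enzymes supply the building blocks, chromatin assembly factor 1 places histones on the new strands, and many of these genes are known targets of E2F transcription factors in cycling cells.

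Gene counts summed to between 16405296 and 25613961 per library, 13453 genes passed the filter on low counts, and all 45 replication genes were among them. The biological coefficient of variation between libraries of a group was 2.82%. No label says if the 3 libraries of a guide come from separate cultures, so p-values reflect the spread between libraries alone, which may be technical. Slc12a9 itself, at 62.6, 66.3 and 67.0 CPM with sgRNA 11, 48.2, 50.0 and 51.7 CPM with sgRNA 15 and 44.8, 53.5 and 47.0 CPM with safe, was not called lower with either guide, with log2 fold changes of 0.43 (SE 0.049, edgeR adjusted p = 6.45e-13) with sgRNA 11 and 0.048 (SE 0.051, edgeR adjusted p = 0.426) with sgRNA 15. The direction with sgRNA 15 turned without safe replicate 1 (-0.016) and with offsets for GC content and exon length (-0.063). All directions below are therefore those of the libraries labelled with a guide. The cell type matched its label, since all 10 macrophage markers were detected, while 9 of 16 markers of fibroblasts, epithelium, endothelium, lymphocytes and red cells were at 0 in all 9 libraries and 13 stayed under 1 CPM, a count scaled to library size, in every library. The summed macrophage markers differed between groups, at 9018 to 9333 CPM with sgRNA 11, 7363 to 7442 CPM with sgRNA 15 and 5645 to 5773 CPM with safe. Lyz2, the macrophage lysozyme, carried much of that sum, at 4513 ± 87.2 CPM with sgRNA 11, 3567 ± 37.7 CPM with sgRNA 15 and 1727 ± 117 CPM with safe (mean ± SD, n = 3). Without Lyz2, a sum added after the data were seen, the markers came to 4589 to 4729 CPM with sgRNA 11, 3817 to 3833 CPM with sgRNA 15 and 3911 to 3990.2 CPM with safe, so that sgRNA 15 turned from above safe to below it. The summed markers of other cells were 4.85 to 5.33 CPM with sgRNA 11, 3.63 to 5.70 CPM with sgRNA 15 and 4.14 to 5.39 CPM with safe. The part of the macrophage markers in the results below was not tested.

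Most replication genes were lower with each Slc12a9 guide than with safe, by modest amounts. The gene set was chosen with earlier results of these data known, which limits its comparison with all tested genes. In the edgeR quasi-likelihood test at a Benjamini-Hochberg adjusted p under 0.05, 33 of the 45 were lower, 4 were higher and 8 were not called with sgRNA 11, where 32.4% of all tested genes were lower and 33.3% higher (65.8% in either direction). With sgRNA 15, 34 were lower, 3 higher and 8 not called, beside 30.7% lower and 32.2% higher among all tested genes (62.9% in either direction). The 45 genes had a median log2 fold change of -0.25 for sgRNA 11 and -0.27 for sgRNA 15, while that of all tested genes was 0.013 for sgRNA 11 and 0.012 for sgRNA 15. Lower calls with both guides were made for 30 of the 45 genes (25.7% of all tested genes), higher calls with both for 3 (26.0%), which were Cdt1, Gins4 and Pold3, and calls in opposite directions for 0 (1.88%). The guide comparisons share the 3 safe libraries, so they are not independent of each other. Averaged over the guides, 36 genes were lower and 4 higher (33.3% and 34.7% of all tested genes, 68.0% together). Bulk counts cannot tell fewer cells in S phase from less replication mRNA in each cell. The changes were small: against a minimum change of 1.2-fold, edgeR called 18 of the 45 genes with sgRNA 11 and 17 with sgRNA 15. The share of all tested genes that passed this stricter test is not given here, so these counts are not set against it. The values ran from -0.76 (Orc1) to 0.33 (Gins4) with sgRNA 11, and from -0.69 (Cdc6) to 0.28 (Gins4) with sgRNA 15.

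**Figure D1:**
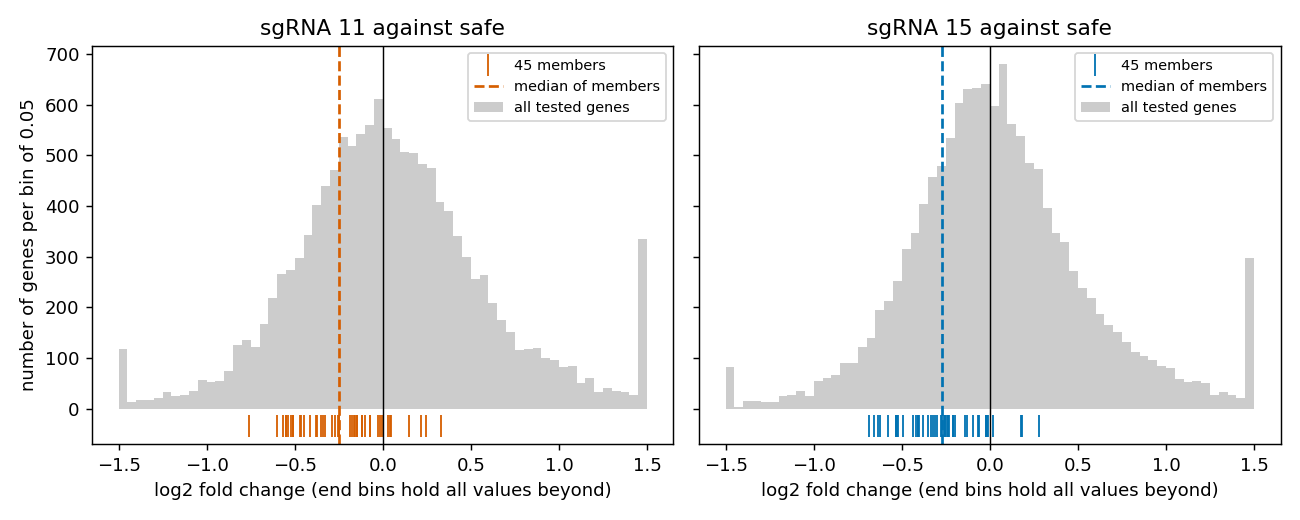
Log2 fold change against safe (x axis) and the number of genes per bin (y axis) for all 13453 tested genes in grey, with sgRNA 11 on the left and sgRNA 15 on the right. Coloured ticks are the 45 replication genes and dashed lines their medians, -0.25 and -0.27, which lie left of the middle of the grey distribution.

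**Figure D2:**
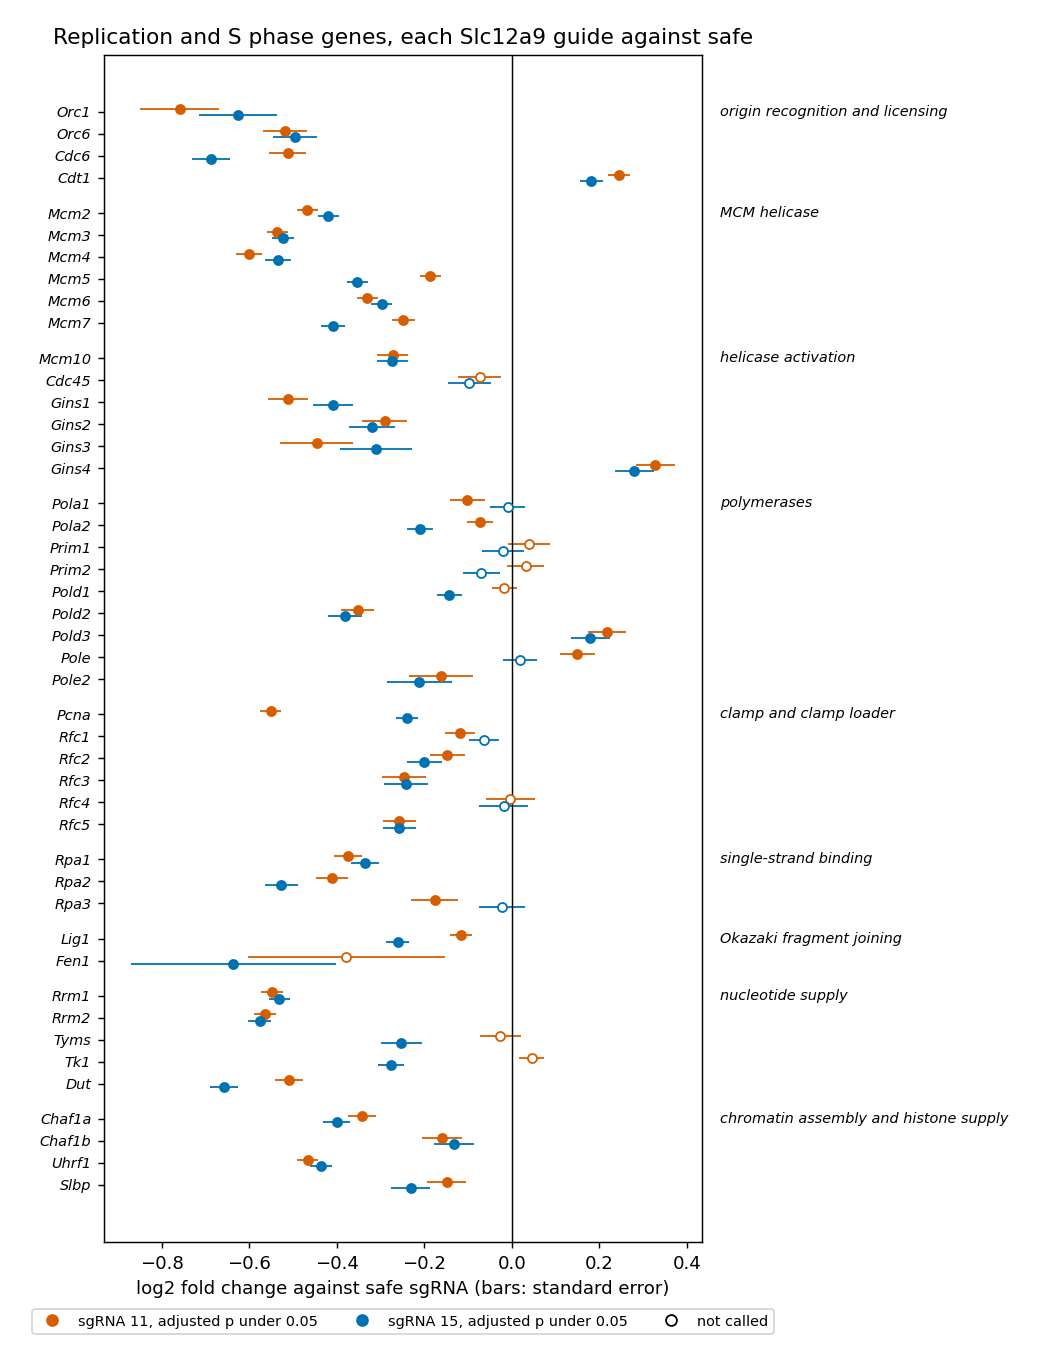
Log2 fold change against safe (x axis, bars show the standard error) of each replication gene, grouped by role from top to bottom, with sgRNA 11 in orange and sgRNA 15 in blue; open points did not pass an adjusted p of 0.05. Most points lie left of 0, the MCM helicase genes all do, and Cdt1, Gins4 and Pold3 lie right of 0 with both guides.

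The promoters of these genes were searched for letters known to be bound by E2F proteins, because E2F factors switch on replication genes as cells enter S phase. RefSeq promoter windows on GRCm38.p6, from 250 bases before to 50 bases after a transcription start, were present for 38 of the 45 genes. The letters TTTGGCGC or TTTCGCGC, on either strand and with overlapping matches allowed, were in the windows of 11 of the 38 genes (28.9%), beside 1.86% of the 9358 tested genes with a window and 0.929% of all 27025 genes with a window. Besides Mcm5, Mcm6, Pola1 and Uhrf1, these were Orc1, Rfc3, Cdt1, Mcm3, Mcm7, Lig1 and Pole2. Of the 11, 9 were lower with both guides, Cdt1 was higher with both, and Pola1 was lower with sgRNA 11 and not called with sgRNA 15. Of the 27 genes with a window and no such letters, 17 were lower with both guides. Among all tested genes, 25.7% were lower and 26.0% higher with both guides. The share among all tested genes with these letters is not given here, and a part of E2F in these calls was not tested. The CCAAT letters of NF-Y sites were in 63.2% of the replication genes and 43.4% of tested genes, GGGCGG in 78.9% and 68.9%, and TTTGAA in 13.2% and 14.5%. A match describes the letters in this window and is not a measured binding site. From 4 of the genes, stretches with matches before a start, outside annotated exons, are shown 5′ to 3′ on the gene's strand with the matched letters in capitals, 40 bases to each side or up to the start. In Mcm5 and Mcm6, matches on opposite strands overlap and run together. The Uhrf1 stretch lies before a further start inside the gene, and the window at its first start held 0 matches.
Mcm5, chr8:75109316-75109407, plus strand: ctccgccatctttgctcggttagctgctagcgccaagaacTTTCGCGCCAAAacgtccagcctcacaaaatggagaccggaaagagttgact
Mcm6, chr1:128359706-128359855, minus strand: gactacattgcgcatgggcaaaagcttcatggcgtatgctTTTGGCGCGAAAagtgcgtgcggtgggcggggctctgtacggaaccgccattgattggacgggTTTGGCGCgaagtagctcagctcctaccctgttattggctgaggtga
Pola1, chrX:93632246-93632333, minus strand: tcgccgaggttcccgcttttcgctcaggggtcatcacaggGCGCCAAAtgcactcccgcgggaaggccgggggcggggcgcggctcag
Uhrf1, chr17:56304088-56304175, plus strand: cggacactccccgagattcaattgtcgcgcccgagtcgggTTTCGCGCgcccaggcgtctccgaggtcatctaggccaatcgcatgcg
The MCM genes and Uhrf1 fell with both guides, whereas Pola1, with the same kind of letters, moved little.

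Of the 4 genes of origin recognition and licensing, 3 were lower with each guide and Cdt1 was higher. Among all tested genes, 32.4% were lower and 33.3% higher with sgRNA 11, and 30.7% lower and 32.2% higher with sgRNA 15. The median of the 4 genes on the log2 scale was -0.52 for sgRNA 11 and -0.56 for sgRNA 15. Orc6, the smallest subunit of the origin recognition complex, stood at 36.6, 38.1 and 35.4 CPM with sgRNA 11, 35.8, 38.0 and 38.0 CPM with sgRNA 15 and 52.7, 52.5 and 52.3 CPM with safe. All 6 libraries with an Slc12a9 guide were below all safe libraries, and the guides overlapped each other. Orc6 fell with both guides, with log2 fold changes of -0.52 (SE 0.051, edgeR adjusted p = 1.61e-15) with sgRNA 11 and -0.50 (SE 0.051, edgeR adjusted p = 1.59e-14) with sgRNA 15. Cdc6, the ATPase that works with the origin complex to load the helicase, stood at 55.4, 55.2 and 56.5 CPM with sgRNA 11, 49.6, 48.5 and 50.0 CPM with sgRNA 15 and 78.7, 78.6 and 81.2 CPM with safe. The 3 groups did not overlap, and sgRNA 15 was the lowest. Cdc6 fell to a log2 fold change of -0.51 (SE 0.043, edgeR adjusted p = 7.85e-19) with sgRNA 11 and -0.69 (SE 0.044, edgeR adjusted p = 2.79e-25) with sgRNA 15. Orc1, the largest subunit of the complex, changed by -40.9% with sgRNA 11 and -35.2% with sgRNA 15, to 10.1 ± 0.247 and 11.0 ± 0.872 CPM, against 17.1 ± 1.60 CPM with safe (SD, n = 3 each). A noncoding gene on the other strand, Gm12743, covers 10.8% of its exon length, and the sources used here do not give the strand setting of the counting, so the Orc1 value is uncertain. Cdt1, which brings the MCM complex to origins, moved the other way. It stood at 324, 319.7 and 334 CPM with sgRNA 11, 309, 316 and 311 CPM with sgRNA 15 and 266, 281 and 279 CPM with safe, and every library with an Slc12a9 guide was above every safe library. Cdt1 rose by log2 0.25 (SE 0.026, edgeR adjusted p = 5.95e-14) with sgRNA 11 and 0.18 (SE 0.026, edgeR adjusted p = 3.2e-09) with sgRNA 15.

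All 6 subunits of the MCM2-7 helicase, the ring that unwinds DNA at the fork, fell with both guides, as did 25.7% of all tested genes. Their summed level was 2260, 2286 and 2322 CPM with sgRNA 11, 2229.99, 2285 and 2221 CPM with sgRNA 15 and 2941, 2995 and 3008 CPM with safe. This sum averaged 2289 ± 31.6 CPM with sgRNA 11, 2246 ± 34.7 CPM with sgRNA 15 and 2981 ± 35.6 CPM with safe (SD, n = 3 each). Libraries of both Slc12a9 guides lay far below those with safe and overlapped each other. Mcm3 stood at 440.4, 443 and 452 CPM with sgRNA 11, 437, 463 and 448 CPM with sgRNA 15 and 636, 645 and 657 CPM with safe. Its sgRNA 11 and sgRNA 15 libraries overlapped and all lay below the safe libraries. Mcm3 changed by log2 -0.54 (SE 0.024, edgeR adjusted p = 5.68e-35) with sgRNA 11 and -0.52 (SE 0.024, edgeR adjusted p = 4.36e-34) with sgRNA 15. Mcm4, which fell furthest of the 6 with each guide, stood at 141, 146 and 138 CPM with sgRNA 11, 147, 151 and 146 CPM with sgRNA 15 and 211, 217 and 216 CPM with safe. The same separation held, and every Slc12a9 library was below every safe library. Mcm4 changed by log2 -0.60 (SE 0.029, edgeR adjusted p = 1.49e-32) with sgRNA 11 and -0.53 (SE 0.029, edgeR adjusted p = 3.24e-29) with sgRNA 15. The other subunits changed by smaller amounts, with log2 fold changes for sgRNA 11 and sgRNA 15 of -0.47 and -0.42 for Mcm2, -0.19 and -0.35 for Mcm5, -0.33 and -0.30 for Mcm6 and -0.25 and -0.41 for Mcm7. Mcm5 and Mcm7 were lower with sgRNA 15 than with sgRNA 11, by log2 -0.17 (SE 0.024, edgeR adjusted p = 1.62e-08) and -0.16 (SE 0.027, edgeR adjusted p = 6.57e-07). Mcm7 lies 0.831 Mb from Slc12a9 on chromosome 5, and the 48 tested genes within 1 Mb of Slc12a9 had median log2 fold changes of 0.23 with sgRNA 11, 0.033 with sgRNA 15 and -0.18 for sgRNA 15 against sgRNA 11. The part of that neighbourhood in the Mcm7 values was not tested.

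**Figure D3:**
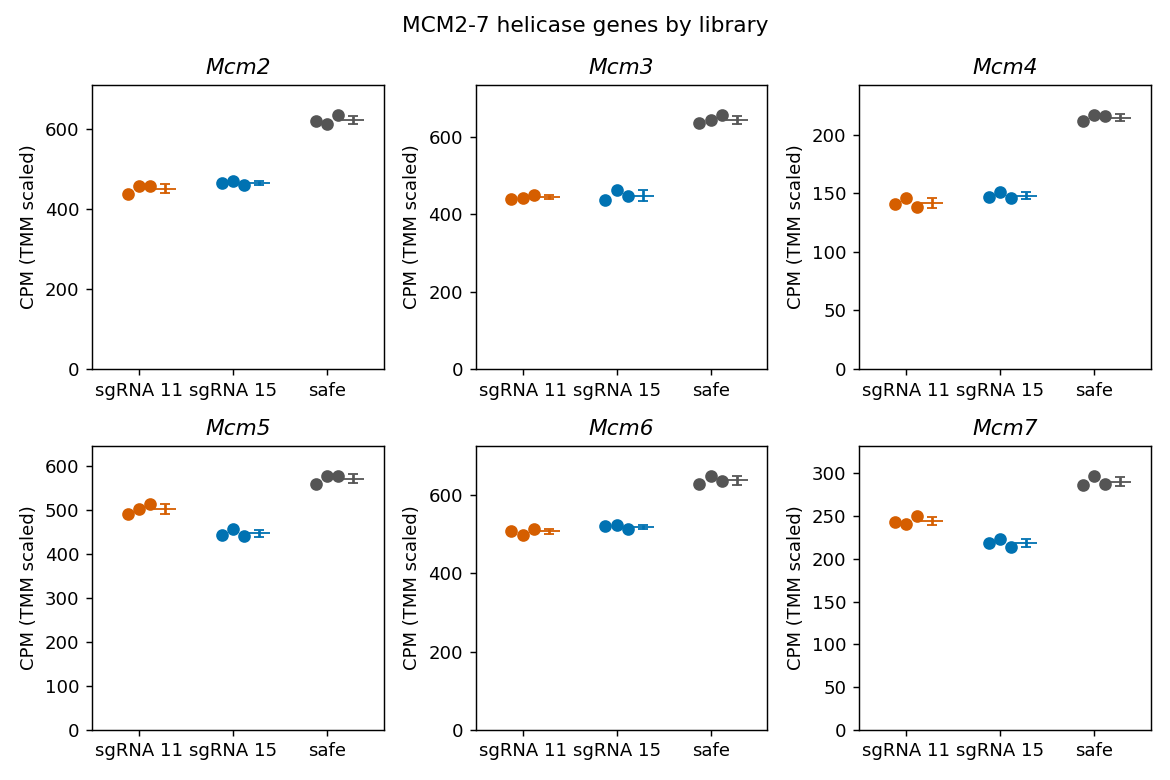
TMM-scaled CPM (y axis, from 0) of the 6 MCM helicase genes in each library, with sgRNA 11, sgRNA 15 and safe from left to right; points are libraries and crosses the mean and SD of 3. In every panel the safe libraries lie above all libraries with an Slc12a9 guide, and in Mcm5 and Mcm7 the sgRNA 15 libraries lie below those with sgRNA 11.

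Among the 6 genes that turn the loaded MCM ring into an active helicase, 4 were lower, 1 higher and 1 not called with each guide. Of all tested genes, 32.4% were lower and 33.3% higher with sgRNA 11, and 30.7% lower and 32.2% higher with sgRNA 15. The medians of the 6 genes were log2 -0.28 for sgRNA 11 and -0.29 for sgRNA 15. Mcm10, which helps the active helicase leave the origin, stood at 97.5, 101 and 99.5 CPM with sgRNA 11, 101, 103 and 93.0 CPM with sgRNA 15 and 121, 121 and 118 CPM with safe. Every Slc12a9 library was below every safe library, and the guides overlapped. Mcm10 changed by log2 -0.27 (SE 0.035, edgeR adjusted p = 1.1e-10) with sgRNA 11 and -0.27 (SE 0.036, edgeR adjusted p = 1.4e-10) with sgRNA 15. Gins1, a GINS subunit, stood at 50.8, 46.4 and 50.1 CPM with sgRNA 11, 53.3, 51.3 and 54.2 CPM with sgRNA 15 and 69.0, 68.1 and 73.7 CPM with safe. The libraries of the 3 groups did not overlap, and sgRNA 11 was the lowest, although the difference between the guides was not called (log2 0.10 (SE 0.048, edgeR adjusted p = 0.0914)). Gins1 changed by log2 -0.51 (SE 0.046, edgeR adjusted p = 3.12e-17) with sgRNA 11 and -0.41 (SE 0.046, edgeR adjusted p = 5.4e-13) with sgRNA 15. The 4 GINS subunits form 1 complex, yet their mRNAs did not move alike. Gins2 changed by -18.2% with sgRNA 11 and -19.9% with sgRNA 15, and Gins3 by -26.6% with sgRNA 11 and -19.4% with sgRNA 15, all called lower. Gse1 on the other strand covers 67.3% of the Gins2 exon length, so the Gins2 value is uncertain. Gins4 stood at 65.8, 65.3 and 64.4 CPM with sgRNA 11, 60.4, 63.6 and 65.3 CPM with sgRNA 15 and 53.6, 51.1 and 50.8 CPM with safe, with every Slc12a9 library above every safe library. Gins4 rose by log2 0.33 (SE 0.045, edgeR adjusted p = 5.97e-10) with sgRNA 11 and 0.28 (SE 0.045, edgeR adjusted p = 7.9e-08) with sgRNA 15. Cdc45, the remaining partner of the active helicase, was at 48.0 ± 2.40 CPM with sgRNA 11, 47.4 ± 1.76 CPM with sgRNA 15 and 50.6 ± 1.95 CPM with safe (mean ± SD, n = 3) and was not called (edgeR adjusted p = 0.186 with sgRNA 11 and 0.0816 with sgRNA 15).

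The polymerases had medians over 9 genes of log2 -0.017 for sgRNA 11 and -0.070 for sgRNA 15; the sgRNA 11 value turned to 0.015 under scaling by library size only, to 0.0071 with a minimum of 5 CPM and to 0.0013 without sgRNA 11 replicate 1, and was -0.050 without safe replicate 1. The sgRNA 15 median was -0.13 without safe replicate 2. With sgRNA 11, 4 were lower, 2 higher and 3 not called, and with sgRNA 15, 4 were lower, 1 higher and 4 not called. Among all tested genes 32.4% were lower and 33.3% higher with sgRNA 11, and 30.7% lower and 32.2% higher with sgRNA 15. The primase-polymerase alpha complex, which lays the first primers, moved little. Pola2, its regulatory subunit, stood at 169, 163 and 166 CPM with sgRNA 11, 152, 149.9 and 152 CPM with sgRNA 15 and 172, 174 and 179 CPM with safe. The sgRNA 15 libraries were the lowest, those with sgRNA 11 lay just under safe, and the groups did not overlap. Pola2 changed by log2 -0.073 (SE 0.029, edgeR adjusted p = 0.0241) with sgRNA 11 and -0.21 (SE 0.030, edgeR adjusted p = 1.64e-09) with sgRNA 15, and the sgRNA 11 call was lost without sgRNA 11 replicate 2, with library size only, without a filter on low counts and with a minimum of 5 CPM. Pola1, the catalytic subunit, had log2 fold changes of -0.10 (SE 0.040, edgeR adjusted p = 0.0197) with sgRNA 11 and -0.0098 (SE 0.039, edgeR adjusted p = 0.844) with sgRNA 15, and the sgRNA 11 call was lost in DESeq2, with the same 3 settings of scaling and filter as for Pola2, under offsets for GC content and exon length, and without safe replicate 2 or sgRNA 11 replicate 2. Prim1 and Prim2, the primase subunits, were not called with either guide, at log2 0.040 and -0.020 for Prim1 and 0.032 and -0.070 for Prim2 with sgRNA 11 and sgRNA 15. Pold2, an accessory subunit of polymerase delta, the main lagging strand enzyme, stood at 81.9, 79.9 and 79.7 CPM with sgRNA 11, 75.4, 79.8 and 81.6 CPM with sgRNA 15 and 104, 101 and 104 CPM with safe. All Slc12a9 libraries were below all safe libraries, and the guides overlapped. Pold2 changed by log2 -0.35 (SE 0.038, edgeR adjusted p = 8.39e-14) with sgRNA 11 and -0.38 (SE 0.038, edgeR adjusted p = 4.35e-15) with sgRNA 15. Pold3, another accessory subunit of the same enzyme, went the other way, at 66.0, 67.1 and 68.0 CPM with sgRNA 11, 61.8, 67.1 and 66.9 CPM with sgRNA 15 and 58.1, 58.2 and 56.5 CPM with safe. No Slc12a9 library overlapped a safe library. Pold3 rose by log2 0.22 (SE 0.044, edgeR adjusted p = 9.38e-06) with sgRNA 11 and 0.18 (SE 0.044, edgeR adjusted p = 0.000267) with sgRNA 15, and with sgRNA 15 the call was lost under offsets for GC content and exon length. The catalytic subunit Pold1 was not called with sgRNA 11 (log2 -0.017 (SE 0.028, edgeR adjusted p = 0.603)) and fell with sgRNA 15 (log2 -0.14 (SE 0.029, edgeR adjusted p = 8.66e-06)). Pole, the catalytic subunit of polymerase epsilon, the main leading strand enzyme, stood at 86.0, 85.7 and 83.8 CPM with sgRNA 11, 76.3, 79.7 and 77.1 CPM with sgRNA 15 and 79.2, 76.8 and 73.8 CPM with safe. Libraries with sgRNA 11 were above those of both other groups, which overlapped. Pole rose with sgRNA 11 and was not called with sgRNA 15, at log2 0.15 (SE 0.039, edgeR adjusted p = 0.000528) with sgRNA 11 and 0.019 (SE 0.040, edgeR adjusted p = 0.698) with sgRNA 15, and the sgRNA 11 call was lost under the same offsets. Pole2, its accessory subunit, was at log2 -0.16 (SE 0.073, edgeR adjusted p = 0.0475) with sgRNA 11 and -0.21 (SE 0.074, edgeR adjusted p = 0.0101) with sgRNA 15, where the sgRNA 11 call was lost under all the settings named for Pola1 and without replicate 1 or 2 of any of the 3 groups, and the sgRNA 15 call without safe replicate 1 or sgRNA 15 replicate 1.

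Pcna, the sliding clamp that holds polymerases on DNA, fell far more with sgRNA 11 than with sgRNA 15. It stood at 404, 399 and 415 CPM with sgRNA 11, 513, 490.1 and 509 CPM with sgRNA 15 and 601, 603 and 580.4 CPM with safe. The 3 groups did not overlap, with sgRNA 11 the lowest and sgRNA 15 in between. Pcna changed by log2 -0.55 (SE 0.024, edgeR adjusted p = 2.09e-35) with sgRNA 11 and -0.24 (SE 0.024, edgeR adjusted p = 7.76e-15) with sgRNA 15. Of the 5 subunits of the RFC clamp loader, 4 were lower with sgRNA 11 and 3 with sgRNA 15 (32.4% and 30.7% of all tested genes). Rfc5 stood at 89.1, 83.9 and 88.9 CPM with sgRNA 11, 89.4, 86.1 and 86.8 CPM with sgRNA 15 and 103, 102 and 109 CPM with safe, with every Slc12a9 library below every safe library and the guides overlapping. Rfc5 changed by log2 -0.26 (SE 0.037, edgeR adjusted p = 3.24e-09) with sgRNA 11 and -0.26 (SE 0.037, edgeR adjusted p = 4.16e-09) with sgRNA 15. Rfc2 (log2 -0.15 and -0.20 with sgRNA 11 and sgRNA 15) and Rfc3 (-0.25 and -0.24) were also lower with both guides. Rfc1, the large subunit, was lower with sgRNA 11 (log2 -0.12 (SE 0.034, edgeR adjusted p = 0.00158)) and not called with sgRNA 15 (log2 -0.064 (SE 0.034, edgeR adjusted p = 0.0986)). Rfc4 was not called with either, at 36.0 ± 2.58 CPM with sgRNA 11, 35.8 ± 0.243 CPM with sgRNA 15 and 36.2 ± 1.96 CPM with safe (mean ± SD, n = 3). Genes on the other strand cover 15.1% of the exon length of Rfc2 (Lat2), 12.7% of Rfc4 (Eif4a2) and 10.7% of Rfc5 (Wsb2), so these 3 values are uncertain.

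The trimeric RPA complex, which coats single-stranded DNA, fell with both guides in its 2 larger subunits. Rpa1, the largest subunit and main DNA-binding one, stood at 115, 114 and 118 CPM with sgRNA 11, 119, 116 and 122 CPM with sgRNA 15 and 154, 148 and 147 CPM with safe. Slc12a9 libraries were all below safe libraries, with the guides overlapping. Rpa1 changed by log2 -0.37 (SE 0.032, edgeR adjusted p = 2.93e-18) with sgRNA 11 and -0.34 (SE 0.032, edgeR adjusted p = 7.07e-16) with sgRNA 15. Rpa2 stood at 86.1, 83.2 and 91.5 CPM with sgRNA 11, 82.9, 81.0 and 76.7 CPM with sgRNA 15 and 115, 115 and 118 CPM with safe. The sgRNA 15 libraries were the lowest and the 3 groups did not overlap. Rpa2 changed by log2 -0.41 (SE 0.037, edgeR adjusted p = 4.08e-17) with sgRNA 11 and -0.53 (SE 0.038, edgeR adjusted p = 2.68e-22) with sgRNA 15. Rpa3, the smallest subunit, stood at 35.4, 37.6 and 36.5 CPM with sgRNA 11, 40.1, 39.4 and 42.5 CPM with sgRNA 15 and 40.8, 40.2 and 42.8 CPM with safe. Only its sgRNA 11 libraries lay below safe, while those with sgRNA 15 overlapped safe. Rpa3 changed by log2 -0.18 (SE 0.053, edgeR adjusted p = 0.00262) with sgRNA 11 and -0.023 (SE 0.053, edgeR adjusted p = 0.726) with sgRNA 15; the sgRNA 11 value turned to 0.051 under offsets for GC content and exon length.

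Okazaki fragments are trimmed by the nuclease Fen1 and sealed by DNA ligase 1. Lig1, the ligase, stood at 289, 298 and 302 CPM with sgRNA 11, 267, 271 and 264 CPM with sgRNA 15 and 319, 325 and 319 CPM with safe. The groups did not overlap, and sgRNA 15 was the lowest. Lig1 changed by log2 -0.12 (SE 0.026, edgeR adjusted p = 4.65e-05) with sgRNA 11 and -0.26 (SE 0.026, edgeR adjusted p = 2.97e-15) with sgRNA 15. Fen1 was counted at very low levels, 1.63, 2.12 and 1.99 CPM with sgRNA 11, 1.59, 1.60 and 1.57 CPM with sgRNA 15 and 2.44, 3.13 and 1.84 CPM with safe, with 26 reads in its lowest library. Libraries with sgRNA 15 were below those of both other groups, and libraries with sgRNA 11 overlapped safe. Fen1 was at log2 -0.38 (SE 0.23, edgeR adjusted p = 0.134) with sgRNA 11 and -0.64 (SE 0.23, edgeR adjusted p = 0.0141) with sgRNA 15, and its sgRNA 15 call was lost in DESeq2 and without safe replicate 2. Genes on the other strand, Tmem258 and Gm10143, cover 84.2% of its exon length, so these few reads leave the level of Fen1 uncertain.

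Nucleotide supply genes were among the most lowered, with medians of log2 -0.51 for sgRNA 11 and -0.53 for sgRNA 15 over 5 genes. Of the 5, 3 were lower and 2 not called with sgRNA 11, and 5 were lower with sgRNA 15 (32.4% and 30.7% of all tested genes were lower). Rrm1, the large subunit of ribonucleotide reductase, which makes deoxyribonucleotides, stood at 296, 297 and 293 CPM with sgRNA 11, 297, 301 and 298 CPM with sgRNA 15 and 431, 433 and 431 CPM with safe. The spread within each group was at most 1.95 CPM (SD), and all Slc12a9 libraries were far below safe. Rrm1 changed by log2 -0.55 (SE 0.025, edgeR adjusted p = 4.75e-35) with sgRNA 11 and -0.53 (SE 0.025, edgeR adjusted p = 6.06e-34) with sgRNA 15. Rrm2, the small subunit that is made in S phase, stood at 241, 243 and 241 CPM with sgRNA 11, 237, 248 and 234 CPM with sgRNA 15 and 358, 361 and 353 CPM with safe. The guides overlapped and no Slc12a9 library came near a safe library. Rrm2 changed by log2 -0.56 (SE 0.026, edgeR adjusted p = 2.91e-34) with sgRNA 11 and -0.58 (SE 0.026, edgeR adjusted p = 1.14e-34) with sgRNA 15. Dut, which removes dUTP so that uracil is kept out of DNA, changed by log2 -0.51 (SE 0.032, edgeR adjusted p = 5.47e-26) with sgRNA 11 and -0.66 (SE 0.032, edgeR adjusted p = 1.54e-32) with sgRNA 15. The thymidine enzymes differed between the guides. Tk1, the cytosolic thymidine kinase, stood at 184, 188 and 189.7 CPM with sgRNA 11, 149, 149 and 151 CPM with sgRNA 15 and 176, 182 and 186 CPM with safe. Libraries with sgRNA 15 lay below both other groups, and those with sgRNA 11 overlapped safe. Tk1 was at log2 0.045 (SE 0.029, edgeR adjusted p = 0.162) with sgRNA 11 and -0.28 (SE 0.029, edgeR adjusted p = 7.11e-14) with sgRNA 15; the sgRNA 11 value turned to -0.064 and was called lower (edgeR adjusted p = 0.0284) under offsets for GC content and exon length, but was called higher with library size only (log2 0.078, edgeR adjusted p = 0.0137) and with a minimum of 5 CPM (log2 0.070, edgeR adjusted p = 0.0220). Tyms, thymidylate synthase, was not called with sgRNA 11 (log2 -0.026 (SE 0.047, edgeR adjusted p = 0.637)) and fell with sgRNA 15 (log2 -0.25 (SE 0.048, edgeR adjusted p = 3.38e-06)).

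All 4 genes of chromatin assembly and histone supply fell with both guides, as did 25.7% of all tested genes. Their medians were log2 -0.25 for sgRNA 11 and -0.32 for sgRNA 15. Uhrf1, which brings the maintenance DNA methyltransferase to newly copied DNA, stood at 436, 447 and 449.7 CPM with sgRNA 11, 452, 466 and 443 CPM with sgRNA 15 and 593, 619 and 631 CPM with safe. All Slc12a9 libraries were below all safe libraries and the guides overlapped. Uhrf1 changed by log2 -0.47 (SE 0.025, edgeR adjusted p = 2.03e-30) with sgRNA 11 and -0.44 (SE 0.025, edgeR adjusted p = 1.98e-28) with sgRNA 15. Chaf1a, the large subunit of chromatin assembly factor 1, stood at 122, 126 and 128 CPM with sgRNA 11, 119, 123 and 119 CPM with sgRNA 15 and 157, 155 and 165 CPM with safe. Again the guides overlapped each other and neither overlapped safe. Chaf1a changed by log2 -0.34 (SE 0.032, edgeR adjusted p = 1.35e-16) with sgRNA 11 and -0.40 (SE 0.032, edgeR adjusted p = 9.9e-20) with sgRNA 15. Ubxn6 on the other strand covers 52.5% of its exon length, so the value is uncertain. Chaf1b, its partner, changed by log2 -0.16 (SE 0.045, edgeR adjusted p = 0.00146) with sgRNA 11 and -0.13 (SE 0.045, edgeR adjusted p = 0.00896) with sgRNA 15, and the sgRNA 15 call was lost with library size only and without safe replicate 1. Slbp, which binds the stem-loop of histone mRNAs, changed by log2 -0.15 (SE 0.044, edgeR adjusted p = 0.00231) with sgRNA 11 and -0.23 (SE 0.045, edgeR adjusted p = 5.24e-06) with sgRNA 15.

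Between the guides, 13 of the 45 genes differed in the edgeR test, 11 lower and 2 higher with sgRNA 15 than with sgRNA 11, beside 33.5% of all tested genes in either direction (15.5% lower, and 2416 of 13453 higher). None of the 13 passed against a minimum change of 1.2-fold. Tk1 differed most, by log2 -0.32 (SE 0.029, edgeR adjusted p = 3.46e-16), with every sgRNA 15 library below every sgRNA 11 library. Pcna was higher with sgRNA 15 by log2 0.31 (SE 0.025, edgeR adjusted p = 2.48e-19), again with no overlap. Fen1 had the next largest difference (log2 -0.26 (SE 0.24, edgeR adjusted p = 0.456)) and was not called. Tyms was lower with sgRNA 15 by log2 -0.23 (SE 0.048, edgeR adjusted p = 7.42e-05). The other called genes differed by log2 -0.17 to -0.12, apart from Rpa3, which was higher with sgRNA 15 (log2 0.15 (SE 0.054, edgeR adjusted p = 0.0190)). That call was lost with DESeq2, without the filter on low counts, under offsets for GC content and exon length, and without sgRNA 11 replicate 1, sgRNA 11 replicate 3 or sgRNA 15 replicate 3. The Rpa2 call was lost without sgRNA 11 replicate 3 or sgRNA 15 replicate 3, and the Pold1 call under the same offsets.

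**Figure D4:**
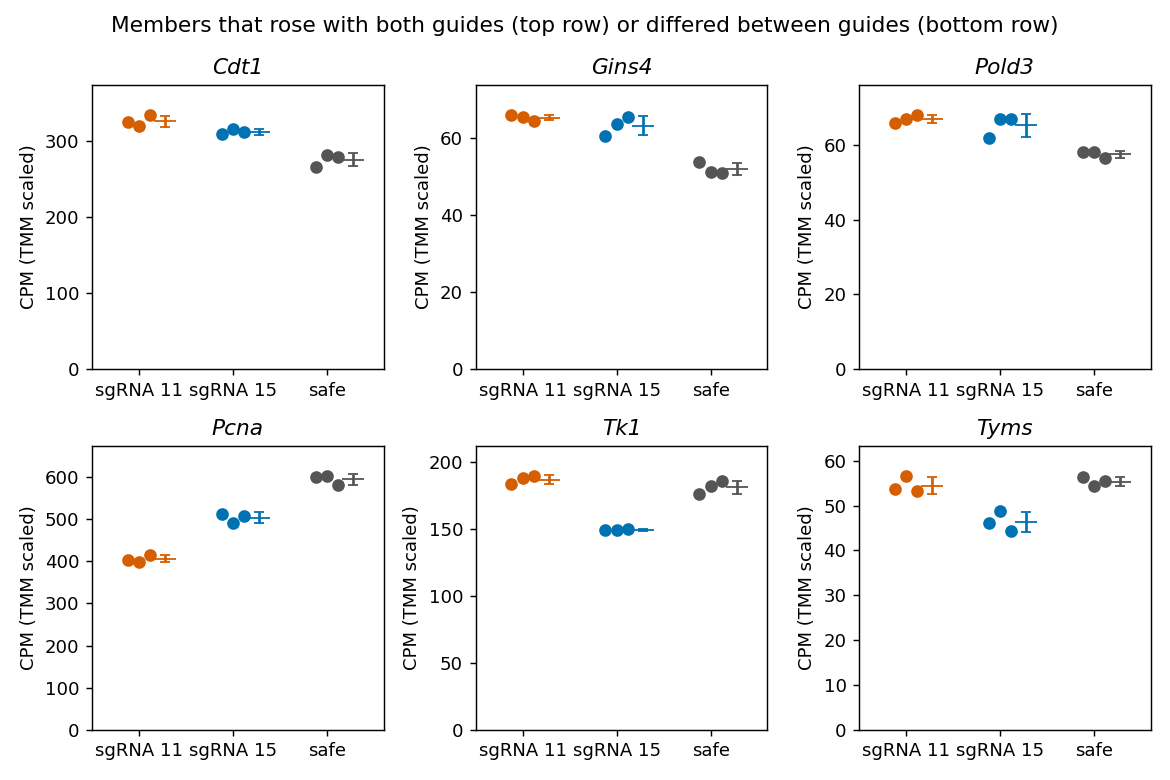
TMM-scaled CPM (y axis, from 0) per library for the 3 genes that rose with both guides (top row) and 3 genes that differed between the guides (bottom row), with sgRNA 11, sgRNA 15 and safe from left to right; points are libraries and crosses the mean and SD of 3. Cdt1, Gins4 and Pold3 lie above safe with both guides, Pcna is lowest with sgRNA 11, and Tk1 and Tyms are lowest with sgRNA 15.

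Levels were compared between genes per kb of merged exon length. Pcna had the highest level, at 169 ± 3.34 CPM per kb with sgRNA 11, 209.99 ± 5.10 with sgRNA 15 and 248 ± 5.17 with safe (SD, n = 3 each). Mcm3 followed in safe libraries, at 119 ± 1.56 CPM per kb with sgRNA 11, 119.7 ± 3.49 with sgRNA 15 and 172 ± 2.76 with safe. Uhrf1 was next at 104 ± 1.74, 106 ± 2.66 and 144 ± 4.49 CPM per kb for the same groups, and Mcm5 had 126 ± 2.79, 112 ± 2.02 and 143 ± 2.58 CPM per kb, so Uhrf1 and Mcm5 in safe libraries did not differ beyond their spread. Fen1 was the lowest, at 0.790 ± 0.105 CPM per kb with sgRNA 11, 0.656 ± 0.00539 with sgRNA 15 and 1.02 ± 0.268 with safe. Genes on the other strand cover 84.2% of its exon length, so its level and rank are uncertain. The catalytic polymerase subunits Pola1 and Pole sat far below the helicase, with 8.92 ± 0.158 CPM per kb for Pola1 and 7.63 ± 0.106 for Pole with sgRNA 11, and 9.58 ± 0.473 and 6.87 ± 0.241 with safe. Not all polymerase genes did. In safe libraries Pold1 had 45.5 ± 1.84 and Pold2 54.2 ± 0.971 CPM per kb, close to Mcm4 at 59.8 ± 0.816. The order in between depends on the length used. Per kb of the principal isoform, a scale added after the data were seen, Pcna stayed first and Fen1 last, while Tk1 ranked 8 among the 45 in safe libraries, in place of 20, and Rrm1 ranked 10, in place of 16.

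**Figure D5:**
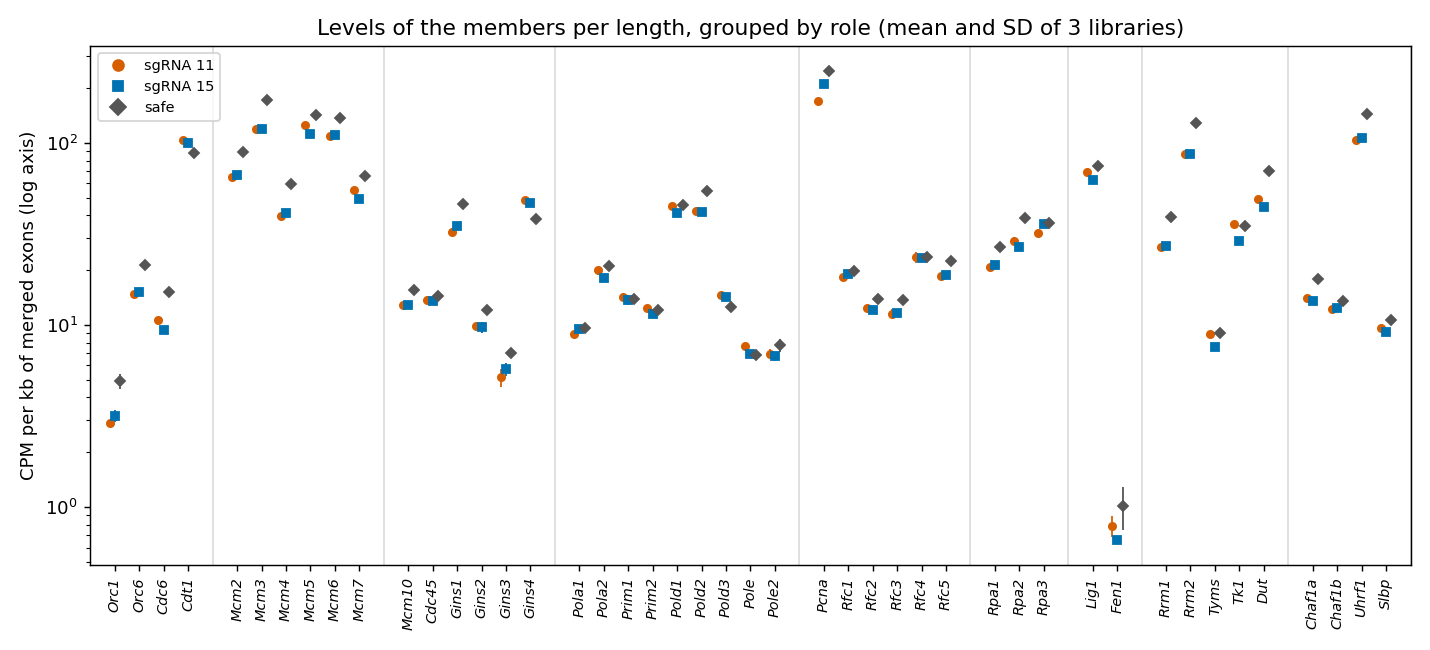
Level of each replication gene in CPM per kb of merged exons (y axis, log scale), grouped by role from left to right, for sgRNA 11, sgRNA 15 and safe; points are the mean of 3 libraries and bars the SD. Pcna has the highest level (169, 209.99 and 248) and Fen1 the lowest (0.790, 0.656 and 1.02), and the safe points lie above the others for most genes. The Fen1 level is uncertain because other genes overlap its exons.

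Other genes of the same processes, from further lists, were more often lower than higher. Their counts stand beside the 32.4% lower and 33.3% higher among all tested genes with sgRNA 11, and 30.7% lower and 32.2% higher with sgRNA 15. Of 31 other replication factors, 18 were lower and 6 higher with sgRNA 11, and 17 lower and 5 higher with sgRNA 15, with median log2 fold changes of -0.19 and -0.14. Pold4 had the highest values of this list, log2 1.61 and 1.05, but AC109138.7 on the same strand covers 24.6% of its exon length, so it is uncertain. Orc2 and Orc4, further subunits of the origin recognition complex, had log2 fold changes of -0.80 and -0.48 for Orc2 and -0.76 and -0.55 for Orc4 with sgRNA 11 and sgRNA 15. Orc2 shares 29.8% of its exon length with Nif3l1 on the other strand and is uncertain. Tipin, part of the fork protection complex, stood at 63.6 ± 1.18 CPM with sgRNA 11, 69.3 ± 2.55 CPM with sgRNA 15 and 106 ± 4.86 CPM with safe (mean ± SD, n = 3), and Top1, the topoisomerase that relieves twist ahead of the fork, at 118 ± 3.55 CPM with sgRNA 11, 130.4 ± 1.40 CPM with sgRNA 15 and 202 ± 4.40 CPM with safe. Their log2 fold changes were -0.74 (SE 0.040, edgeR adjusted p = 1.3e-29) with sgRNA 11 and -0.62 (SE 0.040, edgeR adjusted p = 5.32e-25) with sgRNA 15 for Tipin and -0.78 (SE 0.031, edgeR adjusted p = 5.13e-39) with sgRNA 11 and -0.63 (SE 0.030, edgeR adjusted p = 5.51e-33) with sgRNA 15 for Top1. Of 12 tested genes of other nucleotide supply, 10 were lower with each guide, 1 was higher with sgRNA 11 and 2 with sgRNA 15 (medians log2 -0.32 and -0.36). Tk2 had the highest values of this list, log2 0.69 with sgRNA 11 and 0.63 with sgRNA 15. Dctpp1, which degrades dCTP, had log2 fold changes of -0.47 and -0.60, Samhd1, which degrades deoxyribonucleotides, -0.11 and -0.54, and Shmt1, which feeds folate to thymidylate synthesis, -0.84 and -0.69 with sgRNA 11 and sgRNA 15. Nme1, a nucleoside diphosphate kinase, was at log2 -1.12 and -0.97, but Gm20390 on the same strand covers 12.5% of its exon length and its close copy Nme2 was below the filter, so it is uncertain.

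Of 13 other genes of chromatin and methylation maintenance, 11 were lower with sgRNA 11 and 12 with sgRNA 15 (32.4% and 30.7% of all tested genes), and 0 were higher with either (33.3% and 32.2%), with medians of log2 -0.51 and -0.42. Hells, a chromatin remodeller needed for DNA methylation, stood at 106 ± 4.06 CPM with sgRNA 11, 129 ± 2.52 CPM with sgRNA 15 and 222 ± 3.73 CPM with safe (mean ± SD, n = 3). It was lower by log2 -1.06 (SE 0.031, edgeR adjusted p = 2.79e-48) with sgRNA 11 and -0.79 (SE 0.030, edgeR adjusted p = 2.31e-39) with sgRNA 15. Its partner Cdca7 had log2 fold changes of -0.69 and -0.67 and Nasp, a carrier of histones, -0.76 and -0.68 with sgRNA 11 and sgRNA 15. Fam111a, a protease that helps PCNA load, had -0.62 and -0.42 and is uncertain, because Gm16274 on the other strand covers 14.4% of its exons. Of 12 genes of the replication checkpoint, 9 were lower and 0 higher with sgRNA 11, and 7 lower and 1 higher with sgRNA 15 (medians log2 -0.23 and -0.15). Cdc25a, the phosphatase that drives entry into S phase, stood at 54.7 ± 0.912 CPM with sgRNA 11, 54.5 ± 1.71 CPM with sgRNA 15 and 102 ± 1.06 CPM with safe. Cdc25a changed by log2 -0.90 (SE 0.041, edgeR adjusted p = 1.2e-34) with sgRNA 11 and -0.90 (SE 0.041, edgeR adjusted p = 1.97e-34) with sgRNA 15. Chek1 and Wee1, kinases that hold back Cdk activity when forks stall, had log2 fold changes of -0.36 and -0.23 for Chek1 and -0.50 and -0.42 for Wee1, and Dtl, which targets Cdt1 for destruction, had -0.21 and -0.20 with sgRNA 11 and sgRNA 15.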

How the data were processed

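Polyadenylated RNA of 9 J774A.1 libraries was sequenced, 3 per guide. The deposited values are whole-number counts of reads per gene, made by the authors with STAR and HTSeq on mm10, per the submitters' processing notes; the sources used here give no version, strand setting or counting mode. Genes took 79.3 to 80.7% of the reads of a table, and the tallies of unassigned reads (4.10 to 4.60% in no feature, 6.32 to 6.56% ambiguous, 1.45 to 2.03% of low quality, 0.794 to 1.06% not aligned, 6.20 to 6.69% not unique) stayed out of library sizes and tests. Symbols, positions and exon overlaps came from GENCODE M21, and a gene is called uncertain where another overlaps 10% or more of its exon length.

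The analysis used edgeR 4.0.16 under R 4.3.3: filterByExpr (minimum count 10), TMM factors of 0.979 to 1.02, a robust quasi-likelihood fit to all 9 libraries with 6 residual degrees of freedom, and F tests (2-sided) of each guide, and of the mean of both, against safe and of sgRNA 15 against sgRNA 11. Adjustment was by Benjamini-Hochberg over the 13453 tested genes and a threshold of 0.05. CPM values are scaled by TMM. The gene set, its roles and the further lists were chosen with earlier results of these data known. Of 134 entries of the further lists 133 matched an identifier; Chtf8 had 2 identifiers and was not used, and Nme2 did not pass the filter. Values of every library are given for the 2 genes of each role that ranked first by p in the mean of guides, for all genes of roles with 2 or 3 genes, and for the 3 genes with the largest difference between the guides; up to 4 genes of a further list are named by the same ranking. Cdt1, Gins4, Pold3 and Pole are given in full as the genes that rose and were picked with their values in view. Pold4 and Tk2, the highest of their lists, were picked in the same way. The settings tried instead were a minimum mean of 5 CPM or no filter, RLE size factors, library size only, the tools DESeq2 1.42.0 and limma-voom (limma 3.58.1), a replicate block, fits restricted to the groups compared, offsets for GC content and exon length (known for 99.8% of tested genes), a minimum fold change of 1.2 (glmTreat), and each library left out in turn. The procedure was tested on simulated data.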

Additional observations from a re-analysis of the deposited data

Results flagged for a closer look

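For 13 replication genes the change with sgRNA 15 differed from that with sgRNA 11 in a direct test of the difference (edgeR, Benjamini-Hochberg over all tested genes, where 33.5% of genes differed). The log2 differences of sgRNA 15 against sgRNA 11 were -0.32 for Tk1, -0.23 for Tyms, -0.17 for Cdc6, -0.17 for Mcm5, -0.16 for Mcm7, -0.15 for Dut and -0.15 for Lig1. Smaller ones were -0.14 for Pola2, -0.13 for Pole, -0.13 for Pold1 and -0.12 for Rpa2, of which the Pold1 call was lost under offsets for GC content and exon length and the Rpa2 call without sgRNA 11 replicate 3 or sgRNA 15 replicate 3. Higher values with sgRNA 15 were found for Pcna (0.31) and Rpa3 (0.15), whose call was lost under the alternatives named with its values in the text above. The Pcna and Tk1 values stayed past the threshold with each library left out in turn, with DESeq2 and with limma-voom. At Slc12a9 itself the same difference was -0.39 (SE 0.049, edgeR adjusted p = 2.12e-10). Whether these values relate to each other was not tested.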

How the results depend on the processing

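Against a minimum fold change of 1.2 the counts of called replication genes were 18 with sgRNA 11, 17 with sgRNA 15, 19 for the mean of guides and 0 for sgRNA 15 against sgRNA 11, in place of 37, 37, 40 and 13. This test asks for a larger change, and the share of all tested genes that passed it is not given here. No other alternative moved these counts by over 1.5 times, and with 1 library left out they ranged over 34 to 38, 35 to 39, 38 to 41 and 11 to 15. Same-numbered replicates deviated together little (r -0.0075 to 0.083, above 0.1 in 0 of 9 pairs), and 3 of 9 libraries correlated best with their own number. The fit reported did not pair samples by number, although low correlations cannot exclude paired cultures. With the replicate block, 37, 37, 40 and 14 genes were called.

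Offsets for GC content and exon length made the sgRNA 11 medians more negative, at log2 -0.55 for licensing, -0.48 for the MCM helicase, -0.38 for helicase activation, -0.44 for single-strand binding and -0.34 for chromatin assembly. With sgRNA 15 they gave -0.61 for licensing, -0.51 for MCM, -0.365 for activation, -0.12 for polymerases, -0.28 for clamp and loader, -0.42 for single-strand binding, -0.59 for nucleotide supply and -0.40 for chromatin assembly. The same offsets moved the median of all tested genes to log2 -0.034 with sgRNA 11 and -0.042 with sgRNA 15. In the fit reported it was 0.013 and 0.012. Licensing with sgRNA 11 (-0.52 in the fit reported) and nucleotide supply with sgRNA 15 (-0.53) moved by about that shift or less. Those moves do not set these roles apart from all tested genes. Library size only gave, with sgRNA 11, -0.48 for licensing, -0.37 for MCM, -0.25 for activation, 0.015 for polymerases and -0.22 for chromatin assembly, and with sgRNA 15, -0.52 for licensing, -0.38 for MCM, -0.032 for polymerases, -0.49 for nucleotide supply and -0.28 for chromatin assembly. A minimum of 5 CPM gave -0.49 for licensing and -0.23 for chromatin assembly with sgRNA 11, and -0.52 for nucleotide supply and -0.25 for Okazaki fragment joining with sgRNA 15, where it removed Fen1. The sgRNA 11 median of chromatin assembly was -0.26 with RLE and -0.24 without a filter. With 1 library left out, medians ranged from -0.050 to 0.0013 for polymerases and -0.27 to -0.24 for chromatin assembly with sgRNA 11, and from -0.60 to -0.54 for licensing, -0.13 to -0.051 for polymerases and -0.55 to -0.53 for nucleotide supply with sgRNA 15. Apart from the removal of Fen1, the cause was not tested.

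Some single genes changed sign. Library size only moved the median of all tested genes to log2 0.046 with sgRNA 11 and 0.050 with sgRNA 15, against 0.013 and 0.012 in the fit reported, so signs that turned with it are of about the size of that shift and say little of single genes. With it, sgRNA 15 values turned to 0.028 for Pola1, 0.019 for Prim1, 0.0196 for Rfc4, 0.015 for Rpa3 and 0.0199 for Csf1r, and sgRNA 11 values to 0.015 for Pold1, 0.029 for Rfc4 and 0.0067 for Tyms. A minimum of 5 CPM turned Pola1 with sgRNA 15 (0.0012), Pold1 (0.0071) and Rfc4 (0.021) with sgRNA 11, and no filter turned Rfc4 with sgRNA 11 (0.0058). GC and length offsets turned Pole (-0.0805), Rpa3 (0.088) and Slc12a9 (-0.063) with sgRNA 15, and Rfc4 (0.055), Rpa3 (0.051, against a called -0.18) and Tk1 (-0.064) with sgRNA 11. With 1 library left out, sgRNA 15 values ranged from -0.048 to 0.0156 for Pola1, -0.077 to 0.0115 for Prim1, -0.021 to 0.0398 for Pole, -0.0697 to 0.00334 for Rfc4, -0.016 to 0.11 for Slc12a9 and -0.55 to 0.0305 for Pecam1, and sgRNA 11 values from -0.021 to 0.0775 for Prim2, -0.050 to 0.0013 for Pold1, -0.051 to 0.052 for Rfc4 and -0.39 to 0.14 for Pecam1. Of the replication genes' values under all alternatives, 1821 kept direction and side of the threshold, 91 lost the threshold, 16 gained it and 27 changed sign. Most of the 91 came from the minimum fold change of 1.2, which asks for a larger change. It lost 19 calls with sgRNA 11, 20 with sgRNA 15 and 13 for sgRNA 15 against sgRNA 11. Among genes given as not called, the offsets for GC content and exon length called Cdc45 with both guides, Pold1, Fen1 and Tk1 with sgRNA 11, and Prim2 and Rfc1 with sgRNA 15, and leaving out 1 library called Cdc45, Rfc1 and Prim2 with sgRNA 15 and Fen1 with sgRNA 11 in at least 1 case each. Fen1 had the fewest reads, with 26 in its lowest library, and genes on the other strand cover 84.2% of its exon length.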

Other observations

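Genes that regulate S phase were more often lower than higher, and so were genes of the G2 and mitosis list, which follow it. Of all tested genes, 32.4% were lower and 33.3% higher with sgRNA 11, and 30.7% lower and 32.2% higher with sgRNA 15. Of 18 genes of the E2F, pocket protein and DREAM group, which switch replication genes on and off, 10 were lower and 4 higher with sgRNA 11, and 10 lower and 5 higher with sgRNA 15 in the edgeR test, with median log2 fold changes of -0.17 and -0.21. Tfdp1, the main partner of E2F proteins in DNA binding, stood at 227 ± 4.08 CPM with sgRNA 11, 225 ± 1.90 CPM with sgRNA 15 and 357 ± 6.36 CPM with safe (mean ± SD, n = 3), and its log2 fold changes were -0.65 (SE 0.026, edgeR adjusted p = 1.46e-38) with sgRNA 11 and -0.67 (SE 0.026, edgeR adjusted p = 4.51e-39) with sgRNA 15. Tfdp2, the other partner, went the opposite way, at 71.5 ± 2.35 CPM with sgRNA 11, 62.6 ± 1.60 CPM with sgRNA 15 and 38.9 ± 3.66 CPM with safe, with log2 fold changes of 0.87 (SE 0.049, edgeR adjusted p = 9.73e-29) with sgRNA 11 and 0.68 (SE 0.050, edgeR adjusted p = 1.37e-21) with sgRNA 15. Rbl2, the pocket protein p130 that marks resting cells, was higher at 49.4 ± 2.14 CPM with sgRNA 11, 46.3 ± 2.32 CPM with sgRNA 15 and 31.0 ± 1.05 CPM with safe (log2 0.68 (SE 0.053, edgeR adjusted p = 5.46e-20) with sgRNA 11 and 0.59 (SE 0.054, edgeR adjusted p = 1.31e-16) with sgRNA 15), although Aktip and Gm45464 on the other strand cover 20.97% of its exon length and leave it uncertain. Mybl2, which joins the complex in cycling cells, was lower at 132 ± 1.01 CPM with sgRNA 11, 124 ± 1.86 CPM with sgRNA 15 and 220.1 ± 5.08 CPM with safe (log2 -0.74 (SE 0.029, edgeR adjusted p = 2.04e-38) with sgRNA 11 and -0.83 (SE 0.030, edgeR adjusted p = 1.3e-41) with sgRNA 15).

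Of 20 genes of G2 and mitosis, 16 were lower and 3 higher with sgRNA 11, and 15 lower and 3 higher with sgRNA 15, with medians of log2 -0.24 with each. Ccnb1, the mitotic cyclin, had log2 fold changes of -0.66 and -0.46, the spindle kinases Aurka and Bub1 had -0.53 and -0.59 for Aurka and -0.66 and -0.37 for Bub1, and Cdc20, which triggers the exit from mitosis, had -0.79 and -0.77 with sgRNA 11 and sgRNA 15. Of the 10 macrophage markers, 7 were higher and 2 lower with sgRNA 11, and 6 higher and 3 lower with sgRNA 15, with medians of log2 0.38 and 0.16. Lyz2, the macrophage lysozyme, changed most, by log2 1.39 (SE 0.038, edgeR adjusted p = 5.86e-13) with sgRNA 11 and 1.05 (SE 0.038, edgeR adjusted p = 1.57e-11) with sgRNA 15. Cd68, a lysosomal membrane protein, Fcgr1, a receptor for antibodies, and Spi1 went opposite ways with the guides. With sgRNA 11 and sgRNA 15 the log2 fold changes were -0.17 and 0.39 for Cd68, 0.21 and -0.34 for Fcgr1 and 0.11 and -0.10 for Spi1. These genes, like Lyz2, are named after their values were seen. Adgre1, the F4/80 antigen, had log2 fold changes of 0.75 and 0.65, Itgam, an integrin of myeloid cells, 0.75 and 0.17, Csf1r, the receptor for a macrophage growth factor, 0.57 and -0.018, and Cd14, a receptor for bacterial lipid, -0.65 and -0.46. Itgam shares 68.7% of its exon length with Gm49368 on the same strand and Csf1r 15.1% with Hmgxb3 on the other, so both are uncertain. Of the markers of other cells 3 were tested, Pdgfra at 2.16 ± 0.331 CPM with sgRNA 11, 2.18 ± 0.318 CPM with sgRNA 15 and 1.34 ± 0.294 CPM with safe, Cdh5 at 1.85 ± 0.194 CPM with sgRNA 11, 1.59 ± 0.360 CPM with sgRNA 15 and 2.44 ± 0.116 CPM with safe and Pecam1 at 0.722 ± 0.0923 CPM with sgRNA 11, 0.663 ± 0.226 CPM with sgRNA 15 and 0.784 ± 0.267 CPM with safe (mean ± SD, n = 3).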
